A study of Mus musculus with 16 samples.

Results

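Respiratory complex I is the entry point of electrons from NADH into the mitochondrial respiratory chain, and its subunits and assembly factors are described here in the cerebellum of wild-type (WT) and Atm-/- mice given nicotinamide riboside (NR) or plain water. The genes were chosen by their symbols in a RefSeq gene table (those that start with Ndufa, Ndufb, Ndufc, Ndufs, Ndufv or Ndufaf, without pseudogenes). Of 49 such genes, 46 had at least 1 probe on the array, out of 22911 named genes with a probe, and no probe was named for Ndufb1, Ndufb4b and Ndufb4c. All 46 were well above background on all 16 arrays, and all passed the filter on dim probes, which left 16737 named genes. They comprise 36 subunits, 8 assembly factors, and Ndufa4 and Ndufa4l2, which carry a complex I symbol although the NDUFA4 protein is now placed with complex IV. Probes were not matched for the 7 subunits encoded in mitochondrial DNA.

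Cerebellar cortex RNA of 16 mice was read on 16 one-colour Agilent arrays. The groups, with 4 mice each, are called WT veh and WT NR for the wild type and Atm-/- veh and Atm-/- NR for the mutant. All mice came from the line B6;129S4-Atmtm1Bal/J, in which homozygotes lack a working Atm gene in every cell and WT littermates served as controls. Drinking water held 3.5 mg/ml (12 mM) NR from 6 weeks of age for 2 months in the NR groups and no NR in the veh groups, and the mice were 3.5 months old. The labels give all mice as male.

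In complex I, a flavin and a chain of iron-sulfur clusters in the matrix arm pass electrons from NADH to ubiquinone, and the membrane arm pumps protons. The matrix arm is made of the N module, which oxidises NADH, and the Q module, which reduces ubiquinone. The proximal and distal parts of the membrane arm hold many accessory subunits around pumps that are encoded in mitochondrial DNA. Assembly factors help to build the complex and are not part of the finished enzyme. NR is a precursor of NAD+, which complex I regenerates from NADH, and neurons of the cerebellum rely heavily on oxidative phosphorylation.

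For Atm itself, 1 probe separated the genotypes, with mean log2 signals (quantile normalized, log2 of the background-corrected brightness) of 8.84 ± 0.16 (SD, n = 4) and 8.59 ± 0.07 in WT mice without and with NR, and of 7.97 ± 0.08 and 7.82 ± 0.07 in Atm-/- mice. The other Atm probe overlapped between the genotypes under NR. Each genotype lay on a slide of its own and each treatment on a row of its own, so that genotype and slide, and NR and row, cannot be told apart. Between 34945 and 37817 probes per array were well above background in Atm-/- NR, fewer than the 39134 to 41905 in Atm-/- veh (exact permutation test, two-sided, p = 0.0286). WT veh 4 stood apart by its choroid plexus markers, whose mean over 3 measured genes was 5.81 above their 16-array mean on the log2 scale, and by its forebrain markers (3.67), against at most 0.98 and 0.93 on the other arrays. Atm-/- veh 3 stood apart by its erythrocyte markers (2.33). On 4 arrays, which were WT NR 1 and 4, Atm-/- veh 3 and Atm-/- NR 4, Y-linked signal was missing and Xist was present. In RNA from whole tissue, fewer cells of a type and less RNA per cell cannot be told apart.

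The 4 promoters below belong to the members whose change with NR in Atm-/- mice had the smallest p-values, and they are shown because these genes rose together in that comparison. Each is the stretch of 250 bases before the RefSeq start site (GRCm38.p6), and capitals mark a match to 1 of 3 motifs, searched on both strands: GCATGCGC, the core of sites bound by NRF1, a regulator of nuclear genes for mitochondria; CCGGAAG, an ETS site of the kind bound by GABP; and AAGATGGC, a core of YY1 sites. None of the 3 motifs overlapped another in these windows.
Ndufb3 (chr1:58586147-58586396, + strand): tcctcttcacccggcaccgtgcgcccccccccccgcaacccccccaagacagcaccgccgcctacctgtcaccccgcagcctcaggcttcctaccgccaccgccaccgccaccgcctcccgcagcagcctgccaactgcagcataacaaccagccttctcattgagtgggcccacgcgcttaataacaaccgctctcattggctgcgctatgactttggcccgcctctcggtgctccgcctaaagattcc
Ndufaf1 (chr2:119662835-119663084, - strand): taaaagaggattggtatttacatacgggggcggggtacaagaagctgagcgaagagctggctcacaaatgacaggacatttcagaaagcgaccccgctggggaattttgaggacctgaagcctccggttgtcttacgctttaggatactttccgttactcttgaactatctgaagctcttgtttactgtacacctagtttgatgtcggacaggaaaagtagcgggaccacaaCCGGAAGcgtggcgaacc
Ndufb6 (chr4:40279422-40279671, - strand): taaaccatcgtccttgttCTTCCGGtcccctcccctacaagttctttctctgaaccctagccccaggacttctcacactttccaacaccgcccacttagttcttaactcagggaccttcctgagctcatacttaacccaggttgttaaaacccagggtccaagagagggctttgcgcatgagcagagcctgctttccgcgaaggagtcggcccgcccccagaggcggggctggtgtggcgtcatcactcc
Ndufa8 (chr2:36049339-36049588, - strand): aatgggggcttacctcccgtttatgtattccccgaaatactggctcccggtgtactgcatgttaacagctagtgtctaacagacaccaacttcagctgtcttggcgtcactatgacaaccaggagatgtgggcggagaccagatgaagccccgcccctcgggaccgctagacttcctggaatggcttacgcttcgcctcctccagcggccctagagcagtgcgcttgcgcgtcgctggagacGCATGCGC

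Ndufa8 holds the NRF1 core in the last 8 bases before its start. Ndufaf1 holds the ETS site 18 to 12 bases before its start, and Ndufb6 holds it on the other strand 232 to 226 bases before its start. None of the 3 motifs was found in the window of Ndufb3. The RefSeq table had windows for 40 of the 46 genes, of which 4 held the NRF1 core, 5 the ETS site and 0 the YY1 core. Over all 32851 windows in the table the shares were 2.26%, 6.91% and 1.56%, and over the 13205 genes measured here with a window 4.21%, 12.85% and 2.15%. The shares of members are small counts against these and are a description of the letters in these windows.

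The first comparison asks how NR changed complex I transcripts in Atm-/- mice. In all, 6 genes rose in Atm-/- NR against Atm-/- veh: the distal membrane arm subunits Ndufb3 and Ndufb6, the proximal membrane arm subunit Ndufa8, the assembly factors Ndufaf1 and Ndufaf2, and Ndufa4. Their rises were 1.25-fold to 1.34-fold, and no member fell. A gene was called where its p from limma, adjusted by Benjamini-Hochberg over every probe kept by the filter, was under 0.05, and these 6 of 46 genes were. Among all named genes 11.5% were called, 6.67% higher and 4.8% lower. The share of members called, 13.0% and all higher, is near the 11.5% and above the 6.67%. These shares were not tested, and this count of 6 is not read as a result about complex I. The median change of the 46 was 0.10 on the log2 scale, beside 0.04 for all named genes, and 31 of the 46 changes were above 0, a share of 67.4% against 54.9% of all named genes. Without Atm-/- veh 3, the array with erythrocyte markers and without Y-linked signal, the median was 0.06, and it was 0.05 on the arrays with Y-linked signal.

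Ndufb3 is an accessory subunit of the distal membrane arm. Its log2 signals were 15.28, 15.46, 15.35 and 15.39 on the Atm-/- veh arrays and 15.72, 15.80, 15.81 and 15.78 on the Atm-/- NR arrays. All 4 NR arrays lay above all 4 veh arrays, a log2 change of 0.41 ± 0.08 (SE, adjusted p = 0.0110, limma). In WT mice, the signals were 15.70, 15.64, 15.50 and 15.41 without NR and 15.58, 15.70, 15.79 and 15.75 with it. These groups overlapped, with a change of 0.14 ± 0.08.

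Ndufb6, another accessory subunit of the distal membrane arm, read 14.67, 14.69, 14.57 and 14.61 in Atm-/- veh and 14.94, 14.96, 15.05 and 15.03 in Atm-/- NR. The groups did not overlap, and the change was 0.36 ± 0.07 (adjusted p = 0.0127, limma). In WT mice, Ndufb6 read 14.89, 14.63, 14.65 and 14.70 in the veh group and 14.83, 14.88, 14.94 and 14.97 in the NR group, where WT veh 1 lay within the range of the NR arrays.

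Ndufa8 is an accessory subunit on the intermembrane space side of the membrane arm. It read 14.17, 14.37, 14.15 and 14.22 in Atm-/- veh and 14.50, 14.65, 14.68 and 14.62 in Atm-/- NR. The lowest NR array was above the highest veh array, and the change was 0.38 ± 0.08 (adjusted p = 0.0137, limma). Its WT arrays read 14.48, 14.30, 14.22 and 14.27 without NR and 14.40, 14.39, 14.50 and 14.52 with NR, and these ranges overlapped.

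Ndufaf1, an early assembly factor of the membrane arm, read 12.46, 12.62, 12.46 and 12.55 in Atm-/- veh and 12.86, 13.03, 12.94 and 12.94 in Atm-/- NR. The groups were apart by more than the range of either, with a change of 0.42 ± 0.08 (adjusted p = 0.0110, limma), the largest among the members. Its WT signals were 12.71, 12.85, 12.73 and 12.59 without NR and 12.74, 13.00, 12.88 and 12.96 with it. The WT groups overlapped.

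Ndufaf2, a late assembly factor that is a paralog of the subunit Ndufa12, read 12.66, 12.68, 12.39 and 12.69 in Atm-/- veh and 12.89, 12.93, 12.95 and 13.02 in Atm-/- NR. The groups did not overlap, with a change of 0.34 ± 0.09 (adjusted p = 0.0298, limma), although Atm-/- veh 3 lay well below the other veh arrays. In WT mice it read 12.70, 12.70, 12.68 and 12.64 without NR and 12.73, 13.00, 13.07 and 13.04 with NR, again without overlap, and the change of 0.28 ± 0.09 was not called (adjusted p = 0.522, limma).

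Ndufa4, whose protein is a subunit of complex IV, read 16.26, 16.50, 16.33 and 16.37 in Atm-/- veh and 16.65, 16.70, 16.67 and 16.74 in Atm-/- NR. Its change was 0.33 ± 0.09 (adjusted p = 0.0404, limma), and the groups did not overlap. Its paralog Ndufa4l2, known as a gene induced by hypoxia, went the other way, with 10.18, 10.09, 10.76 and 10.25 in Atm-/- veh and 9.96, 10.03, 9.82 and 9.90 in Atm-/- NR. All Ndufa4l2 signals under NR were below those without it, but the change of -0.39 ± 0.16 was not called (adjusted p = 0.135, limma), and Atm-/- veh 3 was the highest array.

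**Figure D1:**
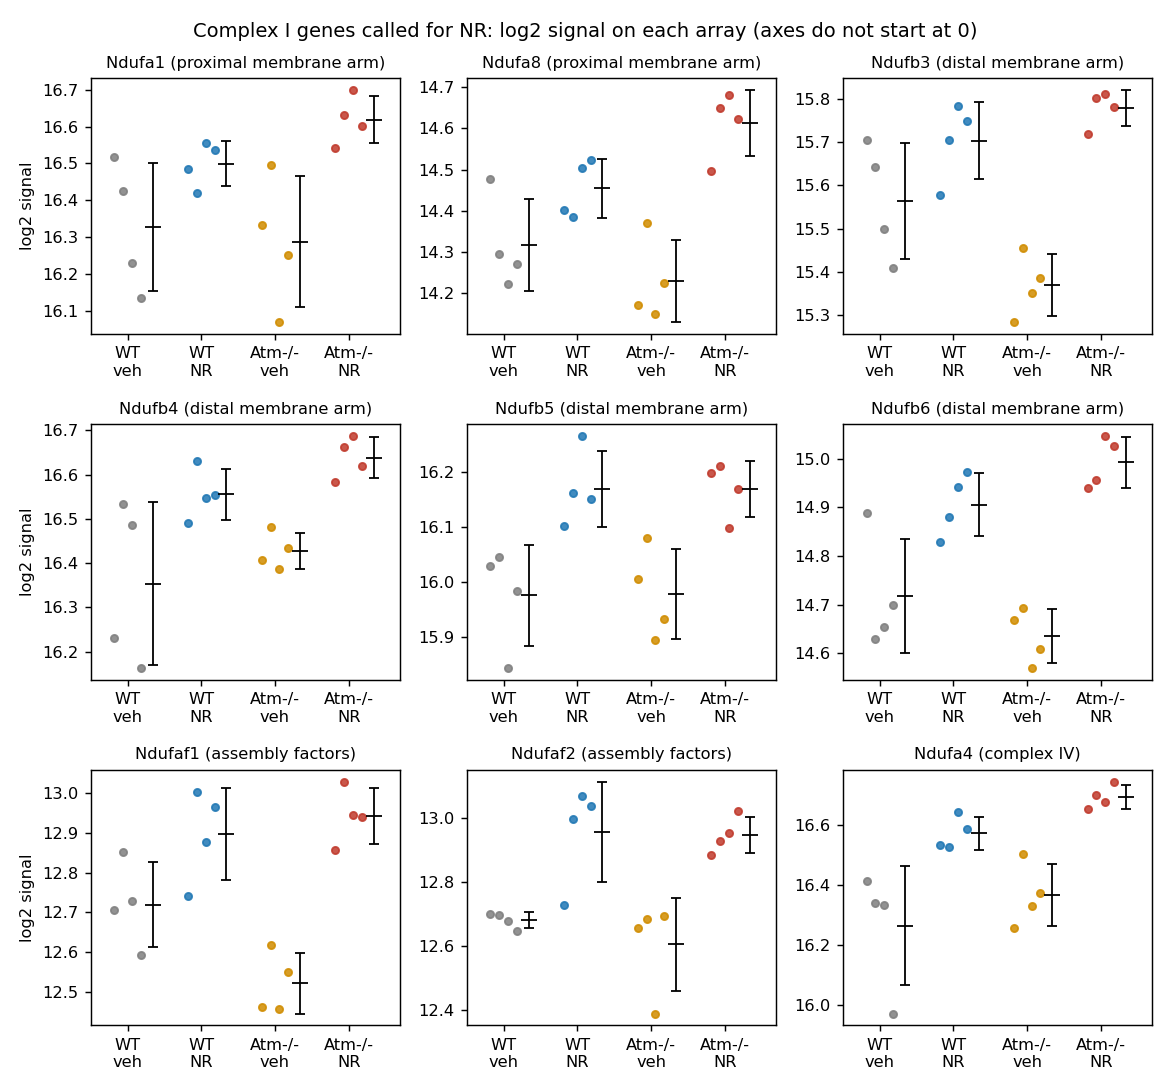
Log2 signal (y axis, not starting at 0) of the 9 complex I genes called for NR in Atm-/- mice or over both genotypes, on each of 4 arrays per group (points), with the group mean ± SD (bars). In all 9 panels the Atm-/- NR arrays lie above the Atm-/- veh arrays; Ndufaf1 goes from 12.46 to 12.62 without NR to between 12.86 and 13.03 with it.

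By part of the enzyme, the membrane arm held all the called subunits. None of the 10 N module and 6 Q module genes was called in Atm-/- mice, against 1 of 9 in the proximal and 2 of 11 in the distal membrane arm. With 11.5% of all named genes called, such small counts say nothing particular to a part. In the distal membrane arm 8 of 11 genes had an unadjusted p under 0.05, all with higher signal in Atm-/- NR, and 0 of the 16 matrix arm genes did; over all 46 it was 18, beside 30.5% of all named genes. The median change was 0.19 in the distal membrane arm, 0.12 in the proximal membrane arm, 0.04 in the N module and 0.00 in the Q module. These medians were not tested against each other.

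The groups were compared also by whether their arrays overlapped. Of the 46 genes, 16 had all Atm-/- NR arrays above all Atm-/- veh arrays and 2 (Ndufc2 and Ndufa4l2) all below, where the shares over all named genes were 16% and 10.3%. Beside the called genes, those above were Ndufa1, Ndufb4, Ndufb5, Ndufb8, Ndufb9, Ndufb10, Ndufb11, Ndufs4, Ndufv2 and Ndufaf6. Ndufa1, a small subunit in the membrane arm that is X-linked, was nearest to the threshold among them, with a change of 0.33 ± 0.10 (adjusted p = 0.0526, limma). After Ndufa4l2, the members with the lowest changes were Ndufc2 (-0.09 ± 0.07, adjusted p = 0.404, limma) and Ndufa12 (-0.09 ± 0.11, adjusted p = 0.634), a membrane arm and a matrix arm subunit.

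The core subunits, conserved from bacteria, carry the redox centres. Among those encoded in the nucleus, the changes in Atm-/- mice ran from -0.07 for Ndufs7 to 0.11 for Ndufv1, and none was called. For Ndufs1, which carries iron-sulfur clusters, the change was 0.04 with a 95% interval of -0.09 to 0.18. Ndufs3, of the Q module, had an interval of -0.16 to 0.16. Ndufs8 had a change of 0.01. The second probe of Ndufv1, the subunit that binds NADH, pointed the other way, at -0.16 (adjusted p = 0.263, limma). The probes of 4 more genes differed in sign in at least 1 comparison of 2 groups: Ndufa10 (-0.07 and 0.00 in Atm-/- mice under NR), Ndufa5 (0.05 and -0.01 between the genotypes under NR), Ndufb5 (near 0 and 0.08 in that comparison) and Ndufaf7 (-0.05 and 0.21 in WT mice under NR). The brighter probe, named first, is the one counted.

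**Figure D2:**
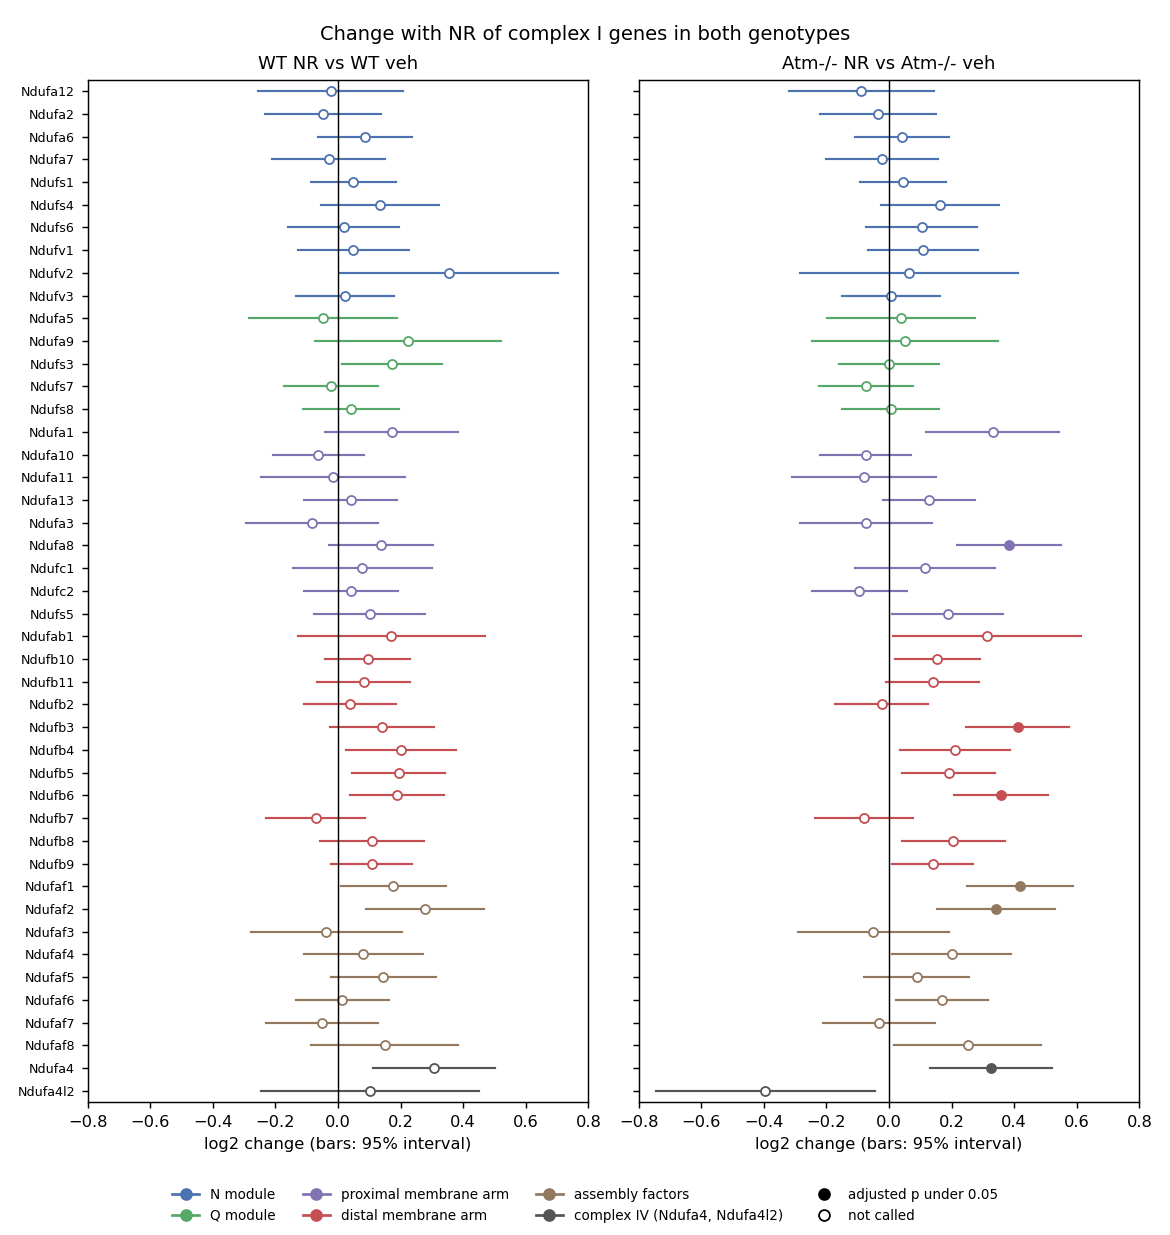
Log2 change with NR (x axis, with 95% intervals) of complex I genes in WT mice (left) and Atm-/- mice (right), grouped by role, with filled points for genes called at an adjusted p under 0.05. The 6 filled points all lie to the right of 0 in Atm-/- mice, in the membrane arm, the assembly factors and Ndufa4, and no point is filled in WT mice.

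Subunits and assembly factors were set side by side. Among the 8 assembly factors, 2 were called in Atm-/- mice and 6 changes were above 0, with a median of 0.18, where 11.5% of all named genes were called and 54.9% of their changes were above 0. Among the 36 subunits, 3 were called and 24 changes were above 0, with a median of 0.06. Ndufaf8 (0.25 ± 0.11), Ndufaf4 (0.20 ± 0.09), Ndufaf6 (0.17 ± 0.07) and Ndufaf5 (0.09 ± 0.08) did not pass, with adjusted p between 0.131 and 0.493 in limma. Ndufaf3 and Ndufaf7 had changes of -0.05 and -0.03. Ndufaf7 is a methyltransferase, and Ndufaf5 a hydroxylase that acts on Ndufs7.

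The difference between both classes was also taken on each array, as the mean deviation of the subunits from their own 16-array means on the log2 scale, less the same mean over the assembly factors. In WT mice it was -0.01 ± 0.03 (SD, n = 4) without NR and -0.03 ± 0.06 with NR, and in Atm-/- mice 0.07 ± 0.05 and -0.02 ± 0.03. All Atm-/- veh arrays (0.03 to 0.13) lay above all Atm-/- NR arrays (-0.06 to 0.00). The highest of them, Atm-/- veh 3, is the array with erythrocyte markers and without Y-linked signal, and its part in the difference was not tested.

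Within the enzyme, the distal membrane arm mean was 0.10 on all 4 Atm-/- NR arrays and lay between -0.15 and -0.03 in Atm-/- veh. The N module mean lay between 0.02 and 0.06 in Atm-/- NR and between -0.04 and 0.05 in Atm-/- veh, which overlap. In WT mice the distal membrane arm ran from -0.12 to 0.01 without NR and from -0.04 to 0.12 with NR. WT NR 2 was the only WT NR array within the range of the WT veh arrays.

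**Figure D3:**
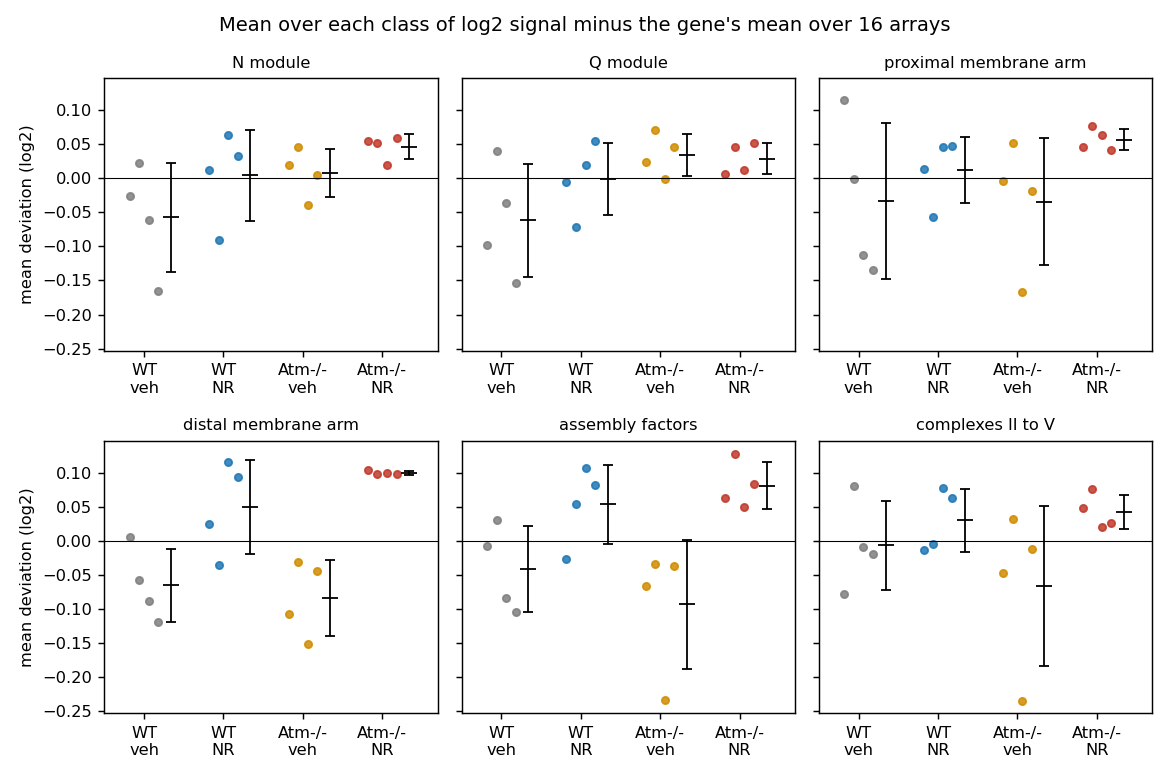
Mean deviation of the genes of a class from their own means over 16 arrays on the log2 scale (y axis), on each array (points), with group mean ± SD (bars), for 4 parts of complex I, its assembly factors and complexes II to V. The 4 Atm-/- NR points of the distal membrane arm lie together at 0.10, above the Atm-/- veh points, while those of the N and Q modules overlap between these groups.

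The calls in Atm-/- mice rest on few arrays. On the 12 arrays with Y-linked signal, 3 against 3 in this comparison, 0 of 46 members and 1.51% of all named genes were called, with changes of 0.25 to 0.40 for the same 6 genes and adjusted p of 0.0630 to 0.179 in limma. With signals scaled to the 75th percentile of each array in place of quantile normalization, 10 members and 13.5% of all named genes were called. With 1 of the 16 arrays left out at a time, between 4 and 7 members were called, and Ndufa8, Ndufaf1, Ndufb3 and Ndufb6 were called each time. The lower number of probes well above background on the Atm-/- NR arrays goes with the NR effect, and its part in it was not tested.

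The second comparison asks for the effect of NR in WT mice. No member was called, as was none of the named genes (0%). An unadjusted p under 0.05 was found for 8 members, all higher under NR, beside 8.84% of all named genes. The groups did not overlap for 6 members, with 5 higher (1.71% of all named genes) and 1 lower (2.87%). The median change over the 46 was 0.08, beside -0.01 over all named genes, and 34 changes were above 0, a share of 73.9% against 48.5%. Without WT veh 4, the array with choroid plexus markers, the median was 0.05 and 31 changes were above 0. Y-linked signal was missing on WT NR 1 and 4 and on no WT veh array. On the arrays with Y-linked signal the median was 0.06 and 33 changes were above 0, and no member was called.

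Ndufv2, a core subunit with an iron-sulfur cluster, had the largest change in WT mice, at 0.36 ± 0.16 (adjusted p = 0.650, limma). Its signals were 14.76, 15.66, 15.73 and 15.69 in WT veh and 15.74, 15.75, 15.87 and 15.90 in WT NR. The size rests on WT veh 1, which was far below the other 3 arrays. Without that array the change was 0.12.

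Ndufa4 and Ndufaf2 followed, at 0.31 ± 0.09 (adjusted p = 0.501) and 0.28 ± 0.09 (adjusted p = 0.522, limma). For Ndufa4 the signals were 16.41, 16.34, 16.33 and 15.97 in WT veh and 16.53, 16.52, 16.64 and 16.58 in WT NR, with no overlap and the lowest value on WT veh 4. Ndufb5 (0.19 ± 0.07) and Ndufb9 (0.11 ± 0.06), both of the distal membrane arm, were the other genes with all NR arrays above all veh arrays. The lowest changes were those of Ndufa3 (-0.08 ± 0.10), Ndufb7 (-0.07 ± 0.07) and Ndufa10 (-0.06 ± 0.07), all membrane arm subunits, and Ndufa10 was the gene whose NR arrays all lay below.

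The other core subunits had WT changes of -0.02 for Ndufs7 to 0.17 for Ndufs3. Among the assembly factors, the changes were 0.18 ± 0.08 for Ndufaf1, 0.15 ± 0.11 for Ndufaf8, 0.15 ± 0.08 for Ndufaf5, 0.08 ± 0.09 for Ndufaf4, 0.01 ± 0.07 for Ndufaf6, -0.04 ± 0.11 for Ndufaf3 and -0.05 ± 0.08 for Ndufaf7. The median was 0.11 over the 8 assembly factors and 0.06 over the 36 subunits.

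The WT and Atm-/- comparisons share no arrays, so the NR effects can be set side by side. The sign was the same in both genotypes for 41 of 46 members (89.1%), with 30 above 0 in both and 11 below 0 in both, beside 71.3% of all named genes. Across the 46 genes Pearson's r was 0.61 and Spearman's rho 0.72, against 0.38 and 0.49 across all named genes. All 8 assembly factors had the same sign. Genes are not independent replicates, and the arrays of each treatment share a row on both slides, so this is a description.

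Whether NR acted differently in Atm-/- and WT mice was tested as an interaction. No member and none of the named genes (0%) was called, and 4 members had an unadjusted p under 0.05, beside 5.96% of all named genes. Of these, 3 had the higher change in Atm-/- mice, namely Ndufb3 (difference 0.27 ± 0.11), Ndufa8 (0.24 ± 0.11) and Ndufaf1 (0.24 ± 0.11), and the other was Ndufa4l2 (-0.50 ± 0.23). All 4 had an adjusted p of 0.839 in limma. Calls in Atm-/- mice alone therefore do not show that NR acted differently there.

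With the NR effect averaged over both genotypes, 9 of 46 members rose and none fell, where 13.4% of all named genes were called, 7.44% higher and 5.94% lower. The 9 were the 6 genes above together with Ndufa1 (0.25 ± 0.07, adjusted p = 0.0366), Ndufb4 (0.21 ± 0.06, adjusted p = 0.0382) and Ndufb5 (0.19 ± 0.05, adjusted p = 0.0256, limma), all of the membrane arm. For Ndufb5 a second probe gave 0.08 (adjusted p = 0.351, limma). The smallest adjusted p was that of Ndufb6, 0.00774, with a change of 0.27 ± 0.05. The median was 0.09 over the 46 members and 0.01 over all named genes.

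Ndufb4 read 16.23, 16.53, 16.49 and 16.16 in WT veh, 16.49, 16.63, 16.55 and 16.55 in WT NR, 16.41, 16.48, 16.39 and 16.43 in Atm-/- veh and 16.58, 16.66, 16.69 and 16.62 in Atm-/- NR. The Atm-/- groups were apart, and the WT groups overlapped through WT veh 2. Ndufaf5 was not called by its brighter probe (0.12 ± 0.06, adjusted p = 0.189), while its other probe had a change of 0.53 (adjusted p = 0.0322, limma). On the 12 arrays with Y-linked signal, 3 members were called (Ndufaf1, Ndufaf2 and Ndufb3) and 6.57% of all named genes.

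The third comparison asks whether loss of Atm altered complex I transcripts. Without NR, no member was called in Atm-/- veh against WT veh, where 0.0538% of all named genes were. An unadjusted p under 0.05 was found for 4 members, beside 16.8% of all named genes, and 3 (Ndufs3, Ndufv2 and Ndufb2) had all Atm-/- arrays above all WT arrays, beside 3.9%. None lay wholly below, beside 4.84%. The median over the 46 was 0.01, and 24 changes were above 0.

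Ndufs3 had the smallest p-value in this comparison. It read 15.54, 15.75, 15.78 and 15.76 in WT veh and 15.96, 15.93, 16.05 and 15.93 in Atm-/- veh, a difference of 0.26 ± 0.07 (adjusted p = 0.198, limma) with no overlap. Under NR the Atm-/- arrays, at 15.93 to 16.03, overlapped with the WT arrays. Ndufa4l2 (0.37 ± 0.16) and Ndufv2 (0.30 ± 0.16) had the largest differences upwards, and for both WT veh 1 was the lowest array. Without it the differences were 0.19 for Ndufa4l2 and 0.07 for Ndufv2. Ndufb3 and Ndufaf1, which rose with NR, had the largest differences downwards, both at -0.20 ± 0.08 with adjusted p of 0.282 and 0.285, followed by Ndufaf4 (-0.11 ± 0.09).

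Under NR, no member was called in Atm-/- NR against WT NR either, where 0.0597% of all named genes were called. No member had an unadjusted p under 0.05, beside 4.34% of all named genes. Ndufa4 and Ndufs4 had all Atm-/- arrays above all WT arrays, beside 2.74%, and none lay wholly below, beside 1.8%. The median over the 46 was 0.04, beside 0.01 over all named genes, and 37 changes were above 0, a share of 80.4% against 52.8%. These shares were not tested. The largest differences were 0.16 ± 0.08 for Ndufa8, 0.12 ± 0.09 for Ndufs4 and 0.12 ± 0.09 for Ndufa4 upwards, and -0.13 ± 0.16 for Ndufa4l2, -0.07 ± 0.07 for Ndufs8 and -0.04 ± 0.08 for Ndufaf7 downwards. With both treatments averaged, no member was called and 0.221% of all named genes were.

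**Figure D4:**
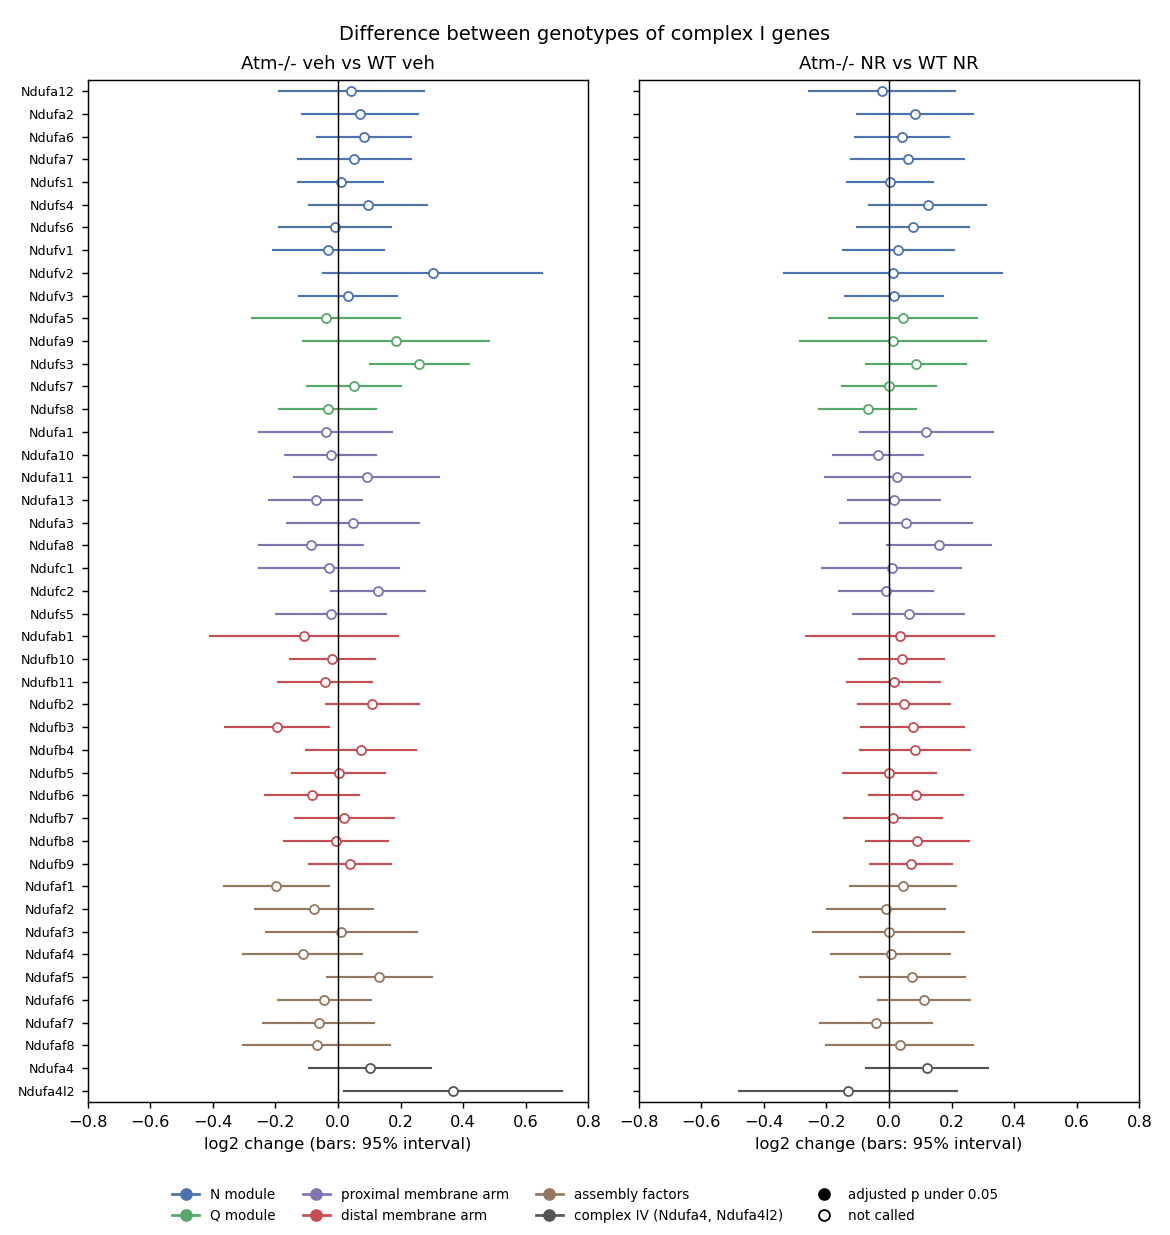
Log2 difference between genotypes (x axis, with 95% intervals) of complex I genes without NR (left) and with NR (right), grouped by role. No point is filled, so no gene was called, and most points lie within 0.2 of 0; Ndufs3 lies at 0.26 without NR.

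Other genes of the pathway were taken from fixed lists. Of 12 measured further assembly factors of complex I, 2 rose and 0 fell in Atm-/- NR against Atm-/- veh, beside the 11.5% of all named genes called there, and 0 were called in the other comparisons of 2 groups. Tmem126a, which binds newly made Nd4, rose by 0.39 ± 0.09 (adjusted p = 0.0204, limma), from between 13.66 and 13.90 to between 14.16 and 14.25. Nubpl, an iron-sulfur protein needed for the matrix arm, rose by 0.31 ± 0.09 (adjusted p = 0.0430, limma). Over both genotypes 4 of the 12 were called, all higher, beside 13.4% of all named genes called, 7.44% higher. Among these 4 were Aifm1 (0.20 ± 0.06) and Ecsit (0.16 ± 0.05). Timmdc1 had the largest changes of this list, 0.40 ± 0.32 in Atm-/- mice and 0.16 ± 0.32 in WT mice, and was not called.

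Of 9 regulators of nuclear genes for mitochondria, 2 rose and 1 fell in Atm-/- mice, where 6.67% of all named genes were called higher and 4.8% lower. Gabpa, the DNA-binding subunit of GABP, read 10.12, 10.24, 10.15 and 10.14 in Atm-/- veh and 10.64, 10.52, 10.54 and 10.68 in Atm-/- NR, a change of 0.43 ± 0.10 (adjusted p = 0.0187, limma). Gabpb1, its partner subunit, read 12.53, 12.40, 12.50 and 12.42 and then 12.13, 12.09, 11.93 and 12.05, a change of -0.41 ± 0.10 (adjusted p = 0.0241, limma). The groups did not overlap for either. Yy1 rose by 0.31 ± 0.09 (adjusted p = 0.0438, limma). In WT mice the changes were 0.13 for Gabpa, -0.22 for Gabpb1 and 0.10 for Yy1, all with overlapping groups. The coactivator Ppargc1a changed by 0.03 ± 0.10 in Atm-/- mice and 0.21 ± 0.10 in WT mice, and Nrf1 by -0.10 and -0.03, and none of these was called. Pprc1, a relative of Ppargc1a, had the largest change of this list in WT mice, at 0.36 (adjusted p = 0.890, limma). That change rests on WT veh 1, which read 8.47, while the other WT veh arrays (10.67, 11.00 and 10.87) were not below the range of the WT NR arrays (10.51 to 10.73).

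Complexes II to V are the other parts of oxidative phosphorylation. Of their 45 measured genes, 2 rose in Atm-/- mice, beside the same 11.5%, namely Uqcrfs1 (0.34 ± 0.09, adjusted p = 0.0356, limma), the Rieske protein of complex III, and Atp5c1 (0.30 ± 0.07, adjusted p = 0.0235, limma), a subunit of ATP synthase. None was called in WT mice or between the genotypes, where Cox6a2, a muscle isoform of a complex IV subunit, had the largest difference at -2.24 without NR (adjusted p = 0.325, limma). Its WT veh arrays ranged from 6.72 to 11.00, which covers the Atm-/- veh arrays (7.25 to 7.91). The median change was 0.12 in Atm-/- mice and 0.07 in WT mice, and 34 of 45 genes had the same sign in both genotypes. With NR averaged over both genotypes, 6 of the 45 rose and 1 fell, where 13.4% of all named genes were called, 7.44% higher and 5.94% lower. The median of the 45 there was 0.09, and that of the 46 complex I members was also 0.09. Complex I was not tested against these complexes.

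Markers of the cell types of the cerebellum were read beside these results. All 6 granule cell and all 6 Purkinje cell genes were well above background on all 16 arrays, with median changes in Atm-/- mice under NR of -0.02 and -0.04. Of the Purkinje cell genes Car8 was called (1.10, adjusted p = 0.0417, limma), and no other marker of the 9 lists was called in that comparison. In the oligodendrocyte list, the 5 genes averaged 0.11 to 0.80 in WT NR and -0.68 to 0.32 in WT veh, and 0 were called. The part of any of these cell types in the changes of complex I genes was not tested.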

How the data were processed

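Cerebellar RNA was hybridised to one-colour arrays of 62976 spots, and per the file headers the deposited intensity of each spot was background-subtracted and detrended within its array by Agilent Feature Extraction (version 12.0.3.1), which also set the deposited flags for spots well above background, outliers and saturation. The authors also deposited a table of z-scores, a score per spot on a quantile-normalized log scale, which was used as an alternative. Probes well above background on every array of at least 1 group were kept, without control spots, log2 intensities were quantile normalized, flagged outlier spots were dropped and spots of a probe averaged. Probes with a missing value after this (788) were left out, and 37253 of 56605 probes entered the fit. Of all probes, 58.3% had a gene name through the RefSeq table. Levels therefore have a precision set by 4 arrays per group.

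The 4 groups came from the labels, and all 16 arrays entered 1 limma fit of group means (limma 3.58.1, R 4.3.3, 12 residual degrees of freedom), with Benjamini-Hochberg adjustment over all kept probes and 95% intervals. A gene was read on its brightest kept probe. The labels give no litter or extraction for the samples of a group. The p-values set differences of group means against the spread between these samples, and shared litters or extractions are not accounted for. Genes named are every called member, the 3 largest rises and falls in each comparison of 2 groups, the core subunits encoded in the nucleus, all Ndufaf genes and members whose probes differ in direction. From the other lists they are called genes and those with the largest change. For complexes II to V, genes called only over both genotypes are counted and not named. Members and lists were chosen with earlier results of these data known. One item is not reported here. Where a gene outside this rule is given, it was chosen after its values were seen. In data simulated for Atm-/- NR against Atm-/- veh with all 37253 probes, 11 of 100 changes of 0.4 on the log2 scale and 62 of 100 changes of 1 were recovered. Only these few probes were changed there, while 3366 probes were called in the real comparison. The adjustment was therefore stricter in the simulation, and its rates do not tell how often changes of the size seen here are missed. Alternatives were other scaling, background, filters, probes, samples, blocks and tests.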

Additional observations from a re-analysis of the deposited data

Results flagged for a closer look

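In a search of 196 groups of 4 arrays for an array far from the other 3, where chance flags about 1 in 20 groups, 11 were found. WT veh 1 held 5 of them, all lowest in their group: Ndufv2 at 14.76 (next array 15.66), Ndufa9 at 13.62 (next 14.34), Ndufa4l2 at 9.43 (next 10.10), Ndufaf7 at 12.54 (next 12.77) and Ndufs3 at 15.54 (next 15.75), all on the log2 scale. WT NR 2 was lowest for Ndufa12 at 15.77 and Ndufa6 at 16.26, and WT NR 4 highest for Ndufa5 at 16.98. WT veh 4, the array with choroid plexus markers, was lowest for Ndufb11 at 16.37. Atm-/- veh 3 was lowest for Ndufaf2 at 12.39 and for the mean deviation of the assembly factors at -0.23 (next -0.07).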

How the results depend on the processing

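The calls in Atm-/- mice under NR moved with the choice of arrays, scaling and test. Of the 46 members, 6 were called there as reported, 10 with scaling to the 75th percentile and 0 on the arrays with Y-linked signal, which left 3 with NR over both genotypes in place of 9. Scaling to the 75th percentile also gave a median change of the subunits of 0.13, in place of 0.06, in Atm-/- NR against Atm-/- veh. In Atm-/- NR against WT NR it gave 0.11 in place of 0.04. On the arrays with Y-linked signal the median difference of the NR effects over the assembly factors was -0.028. On all 16 arrays it was 0.083, so its sign turned. A t-test, before adjustment, gave 5 members for NR in WT mice (7.48% of all named genes passed it), 20 for NR in Atm-/- mice (33.7%), 4 for Atm-/- veh against WT veh (13.5%) and 6 for Atm-/- NR against WT NR (7.03%). After Benjamini-Hochberg it gave 11 for NR in Atm-/- mice and 0 in the others. The methods of the study name a t-test too, but its rule adds limits on the size of change, the false discovery rate and a test over all groups. These counts are therefore not calls by that rule. The causes were not tested. With 1 array left out at a time, 4 to 7 members were called for NR in Atm-/- mice and 6 to 10 over both genotypes. Ndufa3 in WT mice under NR ranged from -0.14 to 0.00017, turning its sign without WT veh 1, and Ndufaf7 in Atm-/- NR against WT NR from -0.076 to 0.016, turning without Atm-/- NR 3; neither was called. Arrays with the same replicate number did not deviate together (correlations from -0.33 to 0.37, 5 of 16 arrays best with their own number). With a replicate block, 5 members were called for NR in Atm-/- mice, without Ndufa4, and 8 over both genotypes, without Ndufa1. Fitting slide as a block left 9 over both genotypes. As each genotype has its own slide, this block cannot change the size of the NR effect and says nothing about the row. The NR contrast within a genotype lies within 1 slide. Of 15 calls of single genes, 12 were lost under at least 1 of 25 alternatives. Among these, Ndufa8, Ndufaf1, Ndufb3 and Ndufb6 in Atm-/- mice were each called in 24 of the 25. So were Ndufa4, Ndufa8 and Ndufb6 over both genotypes. All of these were lost only on the arrays with Y-linked signal, which are fewer. The other lost calls were kept in 13 to 19 of the 25.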
